A study of Mus musculus and Homo sapiens with 15 samples.

Results

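The 34 genes described here are direct transcriptional targets of the tumour suppressor p53 that do not belong to the BCL2 family. They were taken by name from a list of targets, by a rule that uses no measured value, although the list was drawn up with earlier results of these data known, and their human orthologues were taken in the human table. All 34 were found among the 52340 genes of the table of W/W mice, the 56691 genes of the table of grafts and the 61806 genes of the table of U937 cells. By role, 8 act on the cell cycle, 12 on cell death or survival, 5 on DNA repair or nucleotide supply and 7 on metabolism or the stress response, and 2 have other roles (Rps27l and Epha2).

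The study asked how the transcriptome of p53-mutant T-cell lymphomas differs with and without arsenic trioxide (ATO), an arsenic drug used against acute promyelocytic leukaemia. W/W mice carry the R282W mutation of p53 on both alleles, so every W/W sample, the water controls included, has mutant p53 only. Thymus tumours were taken on day 150 after birth from mice given water (n = 3), from ATO-treated mice with progressing tumours (n = 3) and from ATO-treated mice with regressing tumours (n = 3). Grafted tumours grew in C57 mice that received ATO (n = 2) or the buffer vehicle PBS (n = 2). The labels call the grafts a CDX model, give WT as genotype and do not state the p53 genotype of the grafted cells. U937, a human myeloid leukaemia line, was made to express p53 R282W and gave 1 PBS library and 1 ATO library. Outcome defines 2 of the W/W groups, so treatment and outcome cannot be told apart in a comparison of either of them with water. Doses, treatment times and sexes are not among the labels, and no label says whether a sample is 1 animal, so the p-values measure only the spread between these samples, which may in part be technical.

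p53 is a transcription factor that binds DNA as a tetramer at a response element made of a pair of short half-sites. Damage or stress stabilises it, and its targets then stop the cell cycle, drive or restrain apoptosis, repair DNA and adjust metabolism. In the thymus, loss of p53 leads to T-cell lymphoma, and many structural mutants of p53, R282W among them, lose most of this binding.

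The promoter sequences of the members show how far a plain p53 response element lies at the start of the gene. Of the 34 members, 27 had an entry among RefSeq promoters on GRCm38.p6, which run from 250 bases before to 50 bases after each annotated start. A full element, searched on both strands as a pair of p53 half-sites of 10 bases with a spacer of 0 to 13 bases, was found in 1 of the 27, the promoter of Cdkn1a, against 20 of 27025 genes (0.07%). A single half-site was found in 9 of the 27 members (33.3%), against 9.6% of all genes. The Cdkn1a stretch is on chr17:29090876-29090967 of the plus strand, and its capitals run from position -73 to position -42, with the start as position 0, both half-sites and their spacer of 12 bases included. The 6 stretches below it belong to members that differed in the W/W tumours, with 1 half-site each in capitals. They lie at chr11:40755452-40755481 (Ccng1, minus strand), chr6:67037428-67037457 (Gadd45a, minus strand), chr7:78895927-78895956 (Aen, plus strand), chr13:96519399-96519428 (Polk, minus strand), and chr9:66946193-66946222 and chr9:66946296-66946325 (Rps27l, plus strand). By the coordinates of the W/W table, the stretches of Gadd45a, Aen, Polk and Rps27l lie inside the gene and those of Cdkn1a and Ccng1 lie upstream of it. Half-sites of Abhd4, Ei24 and Sesn1, which passed no main test in the W/W tumours, are not printed. The promoters of Pidd1, Ercc5, Fdxr and Triap1, which did pass, held no half-site. All these matches describe letters and show no binding.
Cdkn1a: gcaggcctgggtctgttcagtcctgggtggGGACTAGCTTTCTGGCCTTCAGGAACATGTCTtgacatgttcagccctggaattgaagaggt
Ccng1: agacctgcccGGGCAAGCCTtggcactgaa
Gadd45a: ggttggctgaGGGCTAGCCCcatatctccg
Aen: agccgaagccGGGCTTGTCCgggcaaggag
Polk: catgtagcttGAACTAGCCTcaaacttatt
Rps27l, first half-site: ctttgggctcGGGCTTGCTTtccttcaggc
Rps27l, second half-site: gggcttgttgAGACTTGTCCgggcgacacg

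Libraries held 12800367 to 17550594 counts in the W/W table, 12922147 to 15637644 in the grafts and 16454534 to 17872972 in U937. Values are CPM, counts scaled by library size, which was the TMM-adjusted size in the mouse tables and the total in U937. The labelled tissue was checked against thymocyte markers: the summed level of 10 genes was 706 to 1160 CPM in water, 3390 to 4180 CPM in progressing and 5780 to 11500 CPM in regressing libraries. In the water libraries Cd3e (108 to 227 CPM) and Lck (301 to 516 CPM) were present, while Rag1 did not exceed 2.29 CPM and Rag2 0.387 CPM. B-cell markers summed to 68.3 to 3160 CPM in water against 4.13 to 39.5 CPM in progressing and 95.6 to 156 CPM in regressing libraries. Thymic epithelial markers reached 1510 to 1740 CPM in regressing libraries against 85.1 to 101 CPM in progressing and 147 to 692 CPM in water libraries. Fewer cells of a type and less RNA per cell cannot be told apart in these bulk samples. Water replicate 2 and progressing replicate 2 had the lowest TMM factors (0.747 and 0.794, against 1.035 to 1.156 in the other 7). Water replicate 2 was at least 2-fold above both other water libraries, on CPM + 0.1, in 9 of the 34 members (13.7% of all genes), Zmat3, Triap1, Ercc5 and Rps27l among them. Progressing replicate 2 stood out in the same way in 10 members (11.1% of all genes), Cdkn1a, Gadd45a and Trp53inp1 among them, and regressing replicate 3 in 9 (10.7% of all genes). The part of these library differences and cell markers in the results was not tested, and the number of members called in each W/W comparison is also given without the 2 low-TMM libraries. Macrophage markers summed to 1550 to 2250 CPM in water, 253 to 1180 CPM in progressing and 413 to 811 CPM in regressing libraries, so both treated groups lay below water. Adipocyte markers summed to 38.0 to 142 CPM in water, 119 to 1300 CPM in progressing and 139 to 4970 CPM in regressing libraries, the highest in regressing replicate 3. The mitochondrial share of counts was 2.55% to 3.79% in water, 4.70% to 8.83% in progressing and 2.08% to 8.48% in regressing libraries. The part of these in the results was not tested either.

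Per exonic length, on the authors' FPKM scale, the members spanned from under 1 to over 450. Rps27l, a ribosomal protein S27-like protein, was the highest in water (256 ± 110, SD, n = 3) and in progressing tumours (451 ± 141), and Ddit4, an inhibitor of the growth kinase complex mTORC1, came next in both (75.4 ± 51.0 and 221 ± 215). In regressing tumours Btg2, an antiproliferative cofactor, led with 226 ± 68.5 FPKM, ahead of Trp53inp1 (152 ± 55.5) and Ddit4 (125 ± 12.7), and these neighbours overlap within their SD. Rps27l ranked first in the grafts as well, at 223 ± 31.0 after PBS and 142 ± 2.33 after ATO (n = 2 each). The receptor gene Eda2r was the lowest member in all 5 mouse groups, at 0.065 to 0.37 FPKM, and was listed at 0 in both U937 libraries. In U937 the order began with CCNG1 (72.8) and EI24 (33.9) after PBS, and with SESN2 (102), DDIT4 (84.9) and CCNG1 (70.6) after ATO.

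Progressing tumours had higher transcript levels of 6 members than water tumours, and a lower level of 1. The 6 were 3 genes of cell death (Pidd1, Perp and Trp53inp1), 2 of DNA repair (Ercc5 and Polk) and the cell-cycle and stress gene Gadd45a, by 4.3- to 6.0-fold. The gene that was lower was Fdxr, which encodes the mitochondrial ferredoxin reductase. Across all genes tested, 4.77% were called higher and 7.13% lower in this comparison (edgeR quasi-likelihood test, adjusted p under 0.05 over 18119 genes, all 34 members among them), 11.9% in either direction. Of the 34 members, 25 had a log2 fold change above 0 and 9 below, with a median of 0.62 beside -0.04 over all genes. In 10 members every progressing library was above every water library, a pattern that 11.9% of all genes had, and in 1 (Fdxr) below, which 14.7% had (26.6% in either direction). An unadjusted p under 0.05 was found in 13 members, beside 28.6% of all genes.

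Pidd1 (chromosome 7, 141438113 to 141444025), the scaffold of the complex that activates caspase-2, had 30.8, 39.7 and 27.7 CPM in water, 106, 237 and 235 CPM in progressing and 30.9, 36.9 and 21.8 CPM in regressing libraries. All 3 progressing libraries lay above the other 6, and the water and regressing libraries overlapped. The log2 fold change was 2.56 ± 0.38 (SE, edgeR adjusted p = 0.00415) for progressing against water and -2.69 ± 0.38 (adjusted p = 0.00924) for regressing against progressing. Regressing against water it was -0.13 ± 0.36 (adjusted p = 0.836). Perp (chromosome 10, 18845020 to 18857073), a membrane protein of desmosomes and an effector of p53-dependent death, had 6.9, 41.9 and 60.6 CPM in water and 91.3, 201 and 257 CPM in progressing libraries. Its groups did not overlap, and the log2 fold change was 2.33 ± 0.65 (edgeR adjusted p = 0.0426). Regressing libraries held 66.8, 50.5 and 56.6 CPM of Perp, below all progressing ones, at -1.66 ± 0.64 against them (adjusted p = 0.104).

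Trp53inp1 (chromosome 4, 11156431 to 11174379), a stress protein that promotes p53 phosphorylation and autophagy, was the only member called higher in both ATO-treated groups. Water libraries held 128, 200 and 185 CPM, progressing libraries 656, 1764 and 663 CPM and regressing libraries 1047, 1061 and 544 CPM. Both treated groups lay wholly above water and overlapped each other. Against water the log2 fold change was 2.59 ± 0.48 (edgeR adjusted p = 0.00998) in progressing and 2.37 ± 0.48 (adjusted p = 0.021) in regressing tumours, comparisons that share their controls, and between outcomes it was -0.22 ± 0.46 (adjusted p = 0.775). The thymocyte marker sums given above also lay higher in both treated groups than in water, and their part in this gene's level was not tested. In the grafts, where thymocyte markers summed to 3750 to 6700 CPM in all 4 libraries, Trp53inp1 had 241 and 301 CPM after PBS and 376 and 278 CPM after ATO, with overlapping groups.

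**Figure D1:**
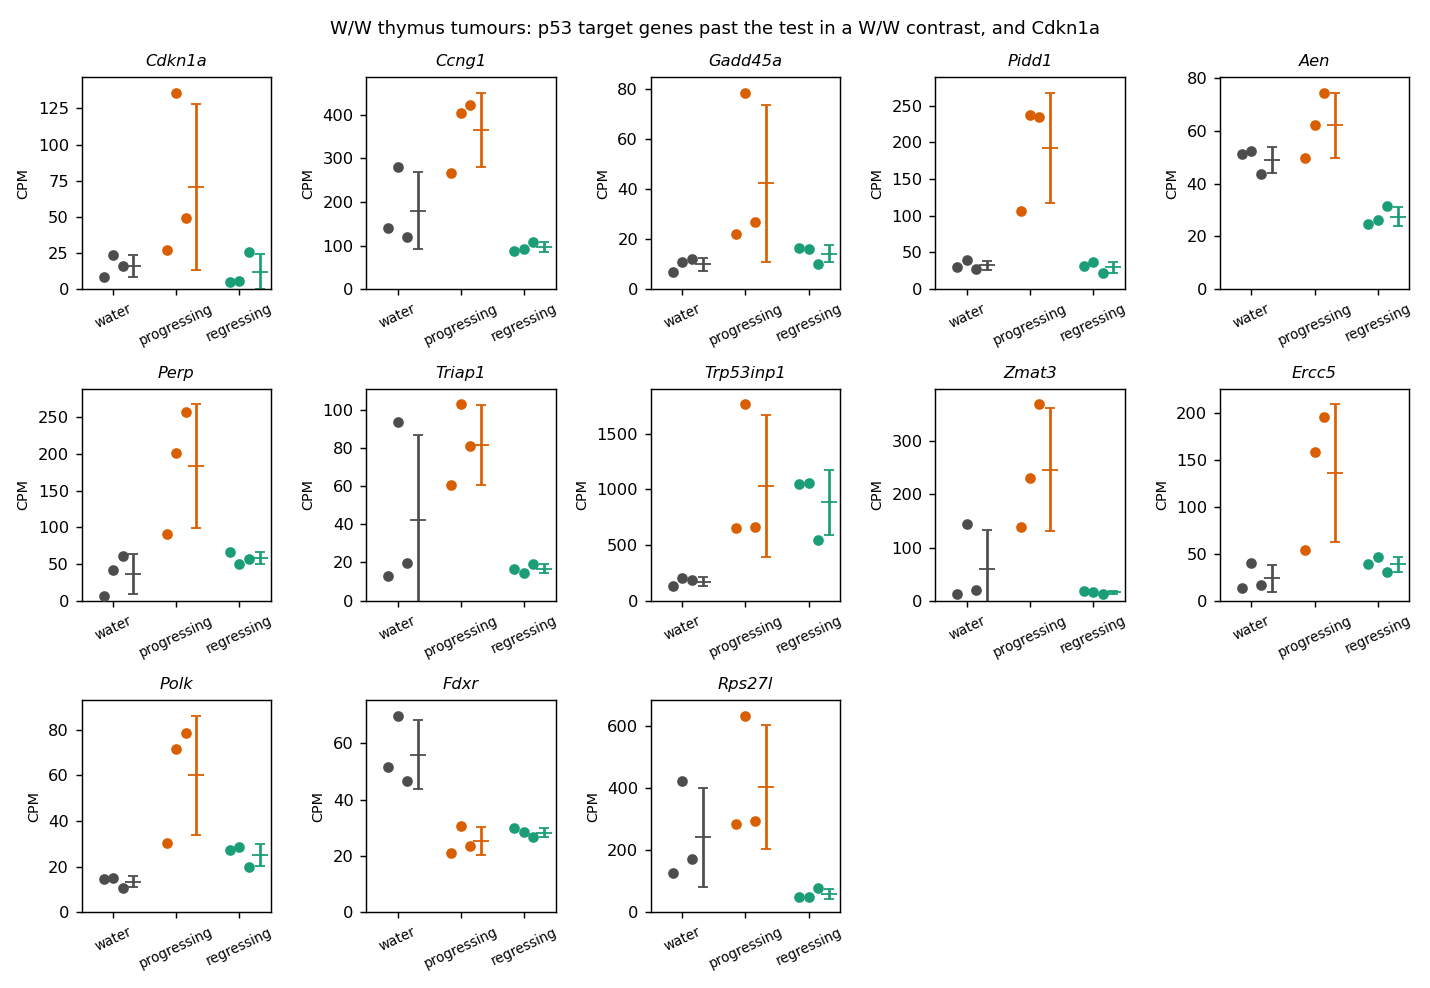
Each panel plots CPM (linear axis from 0) of 1 gene in the 9 W/W libraries by group, with points for libraries and a bar for the mean ± SD (n = 3). Pidd1, Ercc5, Polk and Gadd45a are highest in the 3 progressing libraries, Trp53inp1 is high in both treated groups, and Fdxr is highest in water.

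Among DNA repair genes, Ercc5 (chromosome 1, 44147744 to 44181260), the nuclease that makes the 3′ incision of nucleotide excision repair, had 14.0, 39.9 and 17.0 CPM in water, 53.8, 158 and 195 CPM in progressing and 38.9, 46.0 and 30.7 CPM in regressing libraries. Progressing libraries were above all others. Its log2 fold change was 2.52 ± 0.53 (edgeR adjusted p = 0.0156) against water, and regressing against progressing it was -1.82 ± 0.52 (adjusted p = 0.0458). Polk (chromosome 13, 96480690 to 96542579), a polymerase that copies past damaged bases, had 14.7, 14.9 and 10.7 CPM in water, 30.3, 71.3 and 78.4 CPM in progressing and 27.4, 28.5 and 19.7 CPM in regressing libraries. The groups were ordered water, regressing, progressing without overlap. Of these pairs of groups, progressing against water passed the test (2.16 ± 0.41, edgeR adjusted p = 0.0107), and regressing against water (0.91 ± 0.40, adjusted p = 0.167) and regressing against progressing (-1.25 ± 0.40, adjusted p = 0.0621) did not. The damage-recognition genes Ddb2 and Xpc and the ribonucleotide reductase subunit gene Rrm2b passed no test in the W/W tumours, and their log2 fold changes for progressing against water were -0.38, -0.16 and 0.96. Exons of Ddb2 overlap those of Acp2 on the other strand over 23.8% of their length.

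Of the 8 cell-cycle members, Gadd45a (chromosome 6, 67035096 to 67037457), which restrains the mitotic kinase CDK1, was called in progressing against water. It had 6.84, 10.7 and 12 CPM in water and 21.8, 78.4 and 26.8 CPM in progressing libraries, with a log2 fold change of 2.10 ± 0.53 (edgeR adjusted p = 0.0305). Regressing libraries held 16.3, 15.9 and 10.2 CPM, which overlap water. The noncoding gene E230016M11Rik on the other strand overlaps 19.1% of Gadd45a exon bases and had at most 4.57 CPM in any W/W library.

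Cdkn1a (chromosome 17, 29090976 to 29100727), which encodes the CDK inhibitor p21 and is the best-known p53 target, did not pass the test in any W/W comparison. Its CPM was 8.45, 23.3 and 16.0 in water, 27.0, 136 and 49.0 in progressing and 4.95, 5.51 and 25.9 in regressing libraries. Every progressing library was above every water and regressing library, the last by a small margin, and the highest was progressing replicate 2. The log2 fold change was 2.15 ± 0.77 (edgeR adjusted p = 0.0936) for progressing against water, -2.54 ± 0.78 (adjusted p = 0.0564) for regressing against progressing and -0.39 ± 0.74 (adjusted p = 0.764) for regressing against water. The first 2 of these are called by DESeq2 (adjusted p = 0.0245 and 0.00727) and without a filter on low counts (0.00228 and 0.000661). Without regressing replicate 3 both are also called by edgeR (adjusted p = 0.0498 and 0.0399), as is the second without progressing replicate 1 (adjusted p = 0.0458). The third turned to 0.08 without water replicate 2 and to 0.03 without the 2 low-TMM libraries, and was -1.49 without regressing replicate 3. Over the 9 W/W libraries, the members whose log2 CPM ran most like that of Cdkn1a were Ccng1 (r = 0.844), Rps27l (r = 0.841), Plk2 (r = 0.831) and Triap1 (r = 0.823), and Btg2 ran most against it (r = -0.758). These values describe libraries that share their groups and carry no test. Among all 16497 genes compared, the closest were Anp32b-ps1 (r = 0.970), Ndufb1-ps (r = 0.959), Cox6c (r = 0.955), Gm18588 (r = 0.955) and Acad8 (r = 0.954). Ccng1, Rps27l, Plk2 and Triap1 ranked 222, 232, 292 and 339 among these 16497 genes.

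Fdxr (chromosome 11, 115268024 to 115277050) had 51.5, 69.6 and 46.7 CPM in water, 21.2, 30.8 and 23.6 CPM in progressing and 29.8, 28.5 and 26.6 CPM in regressing libraries. All treated libraries lay below all water libraries. The log2 fold change against water was -1.15 ± 0.31 (edgeR adjusted p = 0.0354) in progressing and -0.98 ± 0.30 (adjusted p = 0.0701) in regressing tumours. The other 6 members of metabolism and stress passed no test in the W/W tumours in the main fit. These are the sestrins Sesn1 and Sesn2, the growth regulator Ddit4, the cytokine Gdf15, the adenylate kinase Ak1 and the lipase Abhd4. Ddit4 was called in progressing against water without a filter on low counts and without water replicate 2. Sesn1 and Sesn2 were at -0.15 ± 0.55 and 0.13 ± 0.53 in progressing against water, and Gdf15 stayed at or below 2.10 CPM in all 9 libraries.

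Members that did not pass in progressing against water ranged from Psrc1, a spindle-associated protein (2.88 ± 0.95, edgeR adjusted p = 0.0739), and the death receptor gene Fas (2.26 ± 1.16, adjusted p = 0.233) at the top to the kinase gene Plk3 (-2.14 ± 0.64, adjusted p = 0.055), the TRAIL receptor gene Tnfrsf10b (-0.98 ± 0.54, adjusted p = 0.265) and Gdf15 (-0.75 ± 0.83, adjusted p = 0.599) at the bottom. Fas spread from 1.99 to 365 CPM within the progressing group alone. Pidd1, Polk and Trp53inp1 kept their calls in all 9 fits that leave out 1 W/W library. Ercc5 lost its call without progressing 3, water 1 or water 3 (adjusted p up to 0.0587), Gadd45a without progressing 2, regressing 1 or 2, or water 1 or 3 (up to 0.0893), Perp without progressing 2 or 3, any regressing library or water 2 (up to 0.122), and Fdxr without any 1 library other than progressing 2 (up to 0.103). Gadd45a also lost its call with limma-voom (adjusted p = 0.0601), with the compared groups alone (0.0697) and without the low-TMM pair (0.075). Perp lost it with the compared groups alone (0.0936) and without that pair (0.114), and Fdxr without a filter on low counts (0.0891) and with the compared groups alone (0.101). The count of 7, beside 11.9% of all genes, was 4 without progressing 3, regressing 1 or 2, or water 1 or 3. Those fits called 4.78%, 6.83%, 7.18%, 7.08% and 7.16% of all genes. The count was 12 without water 2 (13.3% of all genes). Without both low-TMM libraries it was 10 (15.3% of all genes), 8 higher and 2 lower, with 5 of the 7 among them.

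**Figure D2:**
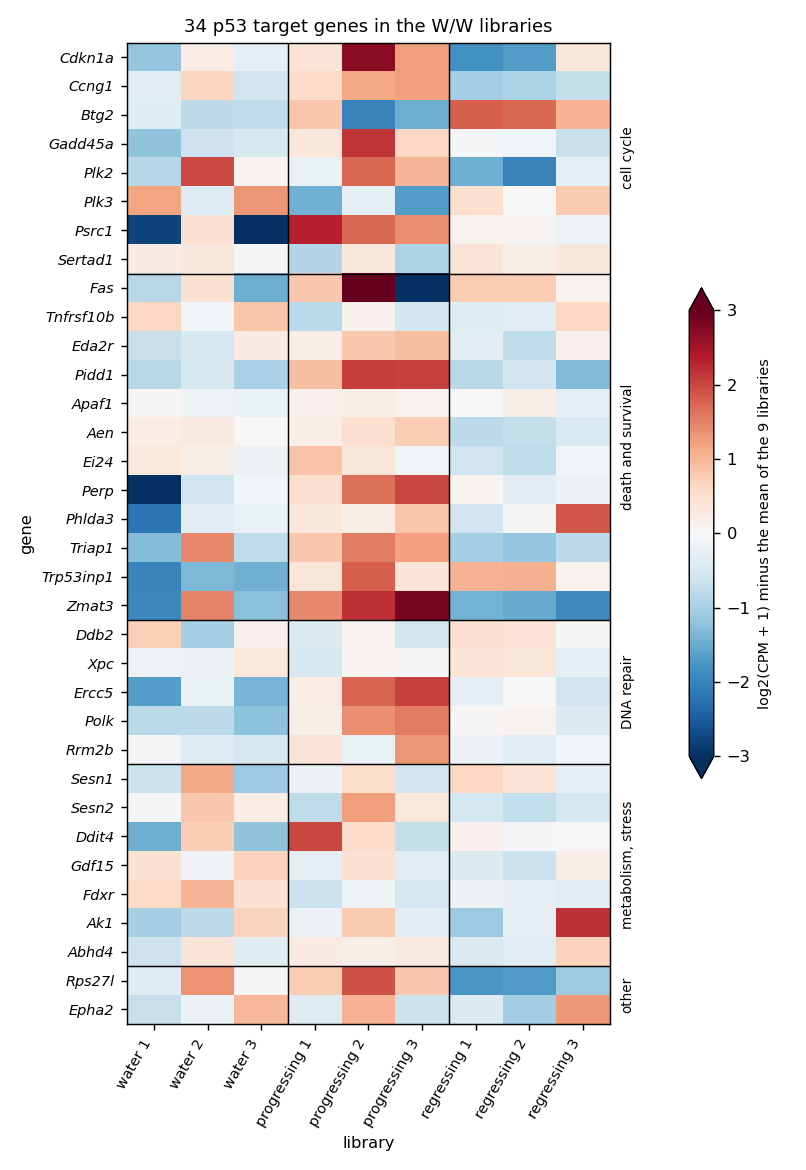
Colours give log2(CPM + 1) of each of the 34 members (rows, grouped by role) minus that gene's mean over the 9 W/W libraries (columns), cut at 3 in either direction. Progressing libraries are red for Pidd1, Zmat3, Ercc5 and Polk, and water replicate 2 departs from its group in Zmat3, Triap1 and Plk2.

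Between the ATO outcomes, regressing tumours had lower levels of 7 members than progressing tumours, and no member was called higher. These were 4 genes of cell death or survival (Pidd1, Zmat3, Aen and Triap1), the cell-cycle gene Ccng1, the repair gene Ercc5 and Rps27l. Of all genes tested, 6.18% were called lower and 6.45% higher here, 12.6% in either direction. Below 0 lay 23 members and above 0 lay 11, with a median log2 fold change of -0.93 beside -0.07 over all genes. In 15 members every regressing library was below every progressing library and in 2 (Btg2 and Plk3) above, patterns that 20.6% and 21.4% of all genes had (42.0% in either direction). No higher call stands beside 15 members with an unadjusted p under 0.05 in either direction (31.7% of all genes), 2 higher calls by DESeq2 and 1 by limma-voom.

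Zmat3 (chromosome 3, 32334792 to 32366014), an RNA-binding zinc finger protein, had the largest difference, with 139, 231 and 369 CPM in progressing and 18.3, 17.0 and 12.8 CPM in regressing libraries. These groups differed by a log2 fold change of -3.94 ± 0.84 (edgeR adjusted p = 0.0201). In water it had 12.5, 143 and 20.6 CPM. Water replicate 2 fell among the progressing values and the other 2 lay near the regressing ones. Neither comparison with water was called in the main fit (progressing 2.07 ± 0.78, edgeR adjusted p = 0.108, and regressing -1.88 ± 0.78, adjusted p = 0.146). Progressing against water was called by DESeq2, by limma-voom, without a filter on low counts, without water replicate 2 and without the low-TMM pair. Regressing against water was called without the filter. Triap1 (chromosome 5, 115341225 to 115343569), a mitochondrial lipid-transfer partner that restrains apoptosis, had a like arrangement. It held 60.5, 103 and 81.2 CPM in progressing, 16.7, 14.3 and 19.5 CPM in regressing, and 13.2, 93.7 and 19.5 CPM in water libraries, with -2.27 ± 0.64 (edgeR adjusted p = 0.0444) between outcomes.

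Ccng1 (chromosome 11, 40748552 to 40755311), cyclin G1, a recruiter of a phosphatase to MDM2, had 266, 404 and 423 CPM in progressing and 87.6, 92.2 and 109 CPM in regressing libraries. Its log2 fold change was -1.92 ± 0.38 (edgeR adjusted p = 0.0167), and the water libraries, with 141, 281 and 119 CPM, lay above all regressing ones. Aen (chromosome 7, 78895854 to 78911209), an exonuclease that digests DNA in apoptosis, had 49.8, 62.2 and 74.5 CPM in progressing, 24.8, 26.3 and 31.5 CPM in regressing and 51.3, 52.6 and 43.5 CPM in water libraries. Regressing libraries were below all others, at -1.18 ± 0.28 (edgeR adjusted p = 0.0286) against progressing and -0.84 ± 0.28 (adjusted p = 0.0889) against water.

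Rps27l (chromosome 9, 66946086 to 66949516) had 284, 633 and 293 CPM in progressing, 49.2, 50.3 and 78.5 CPM in regressing and 128, 423 and 172 CPM in water libraries. Regressing libraries were below all others, and this was the only member called lower in regressing tumours against both groups, by -2.76 ± 0.52 (edgeR adjusted p = 0.0155) against progressing and -2.02 ± 0.51 (adjusted p = 0.0394) against water. Reads of Rps27l and of its close paralogue Rps27 may be split between them by the counting, which makes the level uncertain. Rps27 itself had 7.24 to 22.9 CPM in the W/W libraries.

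Members that did not pass between outcomes ranged from Btg2 (1.89 ± 0.64, edgeR adjusted p = 0.0756), Plk3 (1.70 ± 0.63, adjusted p = 0.0985) and Ak1 (1.00 ± 1.14, adjusted p = 0.573) down to Cdkn1a, Plk2, a stress-induced kinase gene (-2.30 ± 0.85, adjusted p = 0.0944), and Psrc1 (-1.90 ± 0.91, adjusted p = 0.178). Proliferation markers, 12 genes, summed to 3550 to 5480 CPM in progressing and 2260 to 3010 CPM in regressing libraries, fibroblast markers to 771 to 1310 CPM and 123 to 423 CPM, and their part in these differences was not tested. Pidd1 kept its call in all 9 fits that leave out 1 library, and Rps27l lost it only without regressing 1 or 2 (adjusted p up to 0.0721). Ccng1, Zmat3 and Aen lost it without progressing 3 or any 1 regressing library (up to 0.0798, 0.0794 and 0.136), Triap1 without any 1 treated library (up to 0.145) and Ercc5 without progressing 2 or 3, any regressing library or water 3 (up to 0.144). Ercc5 also lost its call with limma-voom (adjusted p = 0.059) and without the low-TMM pair (0.0548), and Aen without a filter on low counts (0.086). The count of 7, beside 12.6% of all genes, was 1 without regressing 1 or 2 (0.922% and 1.62%). It was 2 without progressing 3 (2.8%) and 3 without regressing 3 (2.86%). Without the low-TMM pair it was 9, 7 lower and 2 higher, beside 19.2% of all genes.

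**Figure D3:**
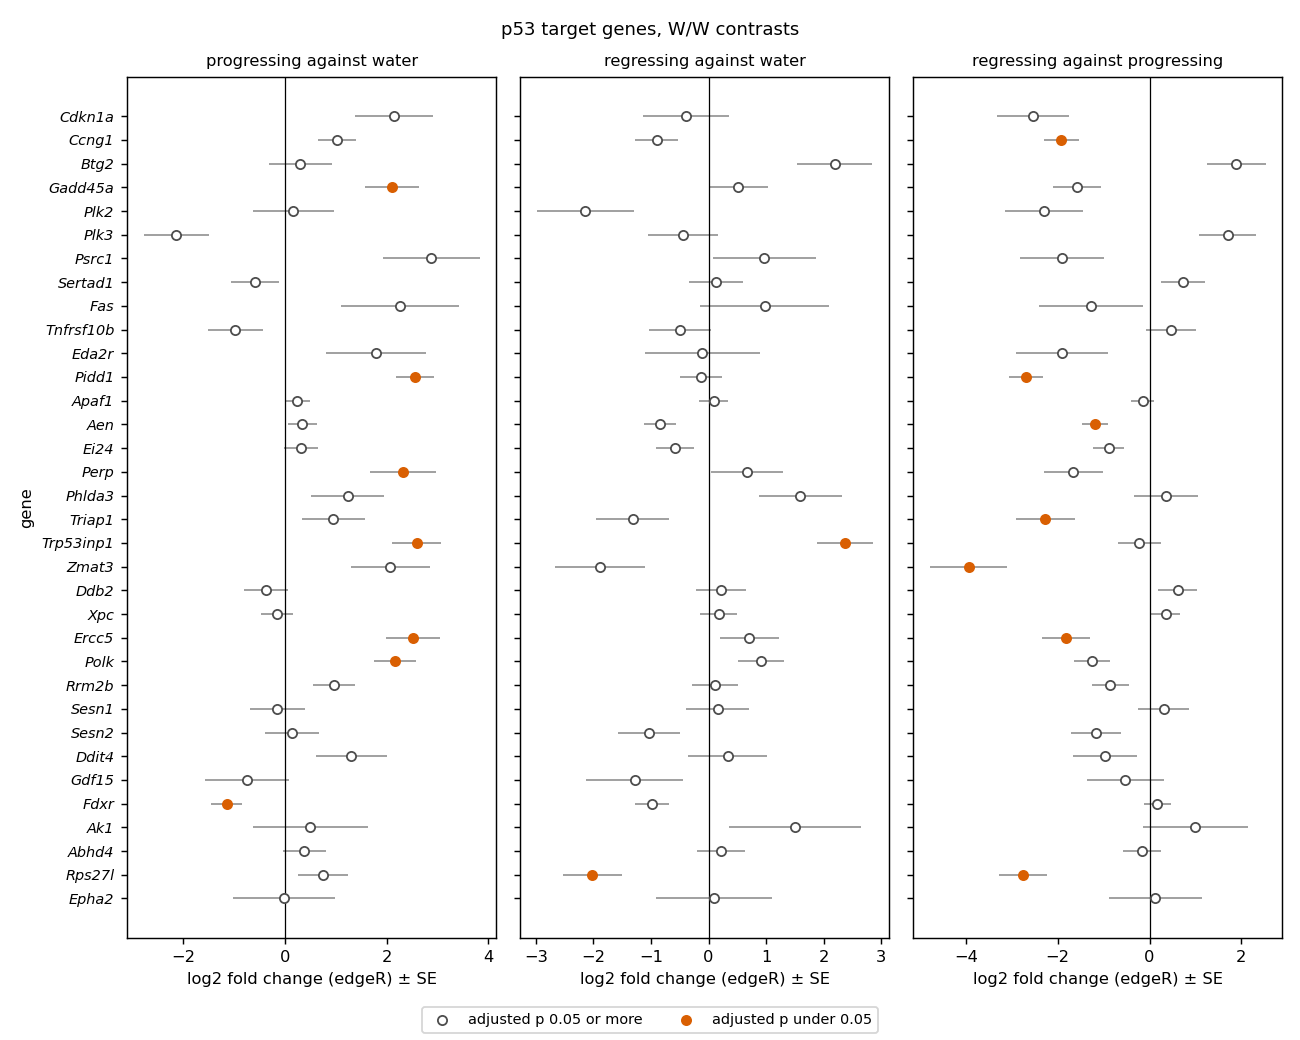
Each panel plots the edgeR log2 fold change ± SE of the 34 members for 1 W/W comparison, with filled points for adjusted p under 0.05. Filled points lie at 6 positive and 1 negative value for progressing against water, at 1 of each for regressing against water, and at 7 negative values for regressing against progressing.

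Regressing tumours differed from water tumours in 2 members, Trp53inp1 (higher) and Rps27l (lower), both given above. Of 6 adipocyte markers 3 were called higher and none lower in this comparison, with a median log2 fold change of 8.9, and their part in the members' differences was not tested. Among all genes 3.13% were called higher and 4.57% lower, 7.7% in either direction, so the members' share did not exceed that of the table. An unadjusted p under 0.05 was found in 10 members, beside 28% of all genes. In 3 members all regressing libraries were above all water libraries and in 5 below, beside 19.3% and 20.9% of all genes (40.1% in either direction). Log2 fold changes lay above 0 in 19 members and below in 15, with a median of 0.11 beside -0.11 over all genes. Members that did not pass ranged from Btg2 (2.19 ± 0.65, edgeR adjusted p = 0.0628), the AKT inhibitor gene Phlda3 (1.59 ± 0.72, adjusted p = 0.177) and Ak1 (1.5 ± 1.15, adjusted p = 0.419) to Plk2 (-2.14 ± 0.84, adjusted p = 0.128), Zmat3 and Triap1 (-1.32 ± 0.63, adjusted p = 0.195). Btg2 held 659, 629 and 390 CPM in regressing libraries, above the 147, 109 and 111 CPM of the water libraries without overlap, and spread from 46.7 to 339 CPM in progressing ones. Trp53inp1 lost its call without regressing 1, regressing 2 or water 1 (adjusted p up to 0.109), and Rps27l without progressing 3, any regressing library or water 2 (up to 0.177). The count of 2, beside 7.7% of all genes, was 0 without regressing 1 or 2 (0.448% and 0.312%). It was 1 without progressing 3, regressing 3 or water 1 (5.58%, 2.85% and 5.6%). Without the low-TMM pair it was 3 (8.14%).

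Taking both ATO outcomes together against water, 3 members were higher and 1 was lower, beside 3.57% and 7.3% of all genes (10.9% in either direction). These were Trp53inp1 (2.48 ± 0.45, edgeR adjusted p = 0.00931), Polk (1.53 ± 0.37, adjusted p = 0.0258) and Pidd1 (1.21 ± 0.33, adjusted p = 0.0407), and Fdxr (-1.07 ± 0.25, adjusted p = 0.0245). In Trp53inp1 and Polk all 6 treated libraries were above all 3 water libraries and in Fdxr all 6 were below, while for Pidd1 the treated and water libraries overlapped. Such separation was found in 6.13% of all genes upwards and 6.16% downwards (12.3% in either direction), and an unadjusted p under 0.05 in 9 members beside 29.0% of all genes. Other members ranged from Psrc1 (1.92 ± 0.85, adjusted p = 0.162), Fas (1.62 ± 1.04, adjusted p = 0.333) and Ercc5 (1.61 ± 0.47, adjusted p = 0.0534) to Plk3 (-1.29 ± 0.51, adjusted p = 0.129), Gdf15 (-1.01 ± 0.69, adjusted p = 0.36) and Plk2 (-0.99 ± 0.68, adjusted p = 0.361). Trp53inp1 kept its call without any 1 library. Pidd1 and Polk lost theirs without progressing 3, regressing 1 or 2, or water 1 or 3 (adjusted p up to 0.125 and 0.0864), and Fdxr without progressing 3, any regressing library, or water 1 or 2 (up to 0.0819). Pidd1 and Polk also lost theirs with limma-voom (0.0611 and 0.0533) and without the low-TMM pair (0.0594 and 0.053), and Fdxr without a filter on low counts (0.0688). An edgeR fit of all 9 W/W libraries with both outcomes merged into 1 group counts differences between outcomes as spread within that group. In it Pidd1, Polk and Fdxr lost their calls (adjusted p = 0.244, 0.112 and 0.0625). The count of 4, beside 10.9% of all genes, was 1 without progressing 3, regressing 1 or 2, or water 1. Those fits called 7.05%, 4.35%, 3.42% and 6.88% of all genes. The count was 2 without water 3 (6.78%) and 7 without water 2 (7.92%), as it was without the low-TMM pair (12.1%).

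The genes that act on p53 were read beside its targets from a list of 13 regulators. Trp53 itself held 319, 284 and 231 CPM in water, 49.9, 153 and 57.8 CPM in progressing and 127, 137 and 99.3 CPM in regressing libraries. All treated libraries were below all water libraries, at -1.68 ± 0.42 (edgeR adjusted p = 0.0303) in progressing and -1.20 ± 0.42 (adjusted p = 0.0948) in regressing tumours. Mdm2, a p53 target and the ubiquitin ligase that degrades p53, had 102, 93.2 and 81.9 CPM in water, 120, 539 and 147 CPM in progressing and 157, 162 and 107 CPM in regressing libraries. Treated libraries were all above water, and neither difference passed the test (1.54 ± 0.52, adjusted p = 0.0771, and 0.62 ± 0.51, adjusted p = 0.449).

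Of the regulators, 3 were called lower and none higher in progressing against water, Trp53, the nuclear body gene Pml (-1.82 ± 0.28, edgeR adjusted p = 0.00493) and the p53 homologue Trp63 (-4.05 ± 0.65, adjusted p = 0.00565). In regressing against water, 2 were lower, Pml (-1.20 ± 0.28, edgeR adjusted p = 0.0315) and Cdkn2a, whose ARF product blocks MDM2 (-4.90 ± 0.87, adjusted p = 0.0142), and 1 was higher, the p53 inhibitor gene Mdm4 (1.88 ± 0.50, adjusted p = 0.0463). Cdkn2a averaged 8.61 ± 8.84 CPM in regressing, 224 ± 110 CPM in progressing and 257 ± 172 CPM in water tumours (SD, n = 3), so it was also lower in regressing than in progressing tumours (-4.70 ± 0.86, adjusted p = 0.0145). Trp63 was higher there (5.76 ± 0.70, adjusted p = 0.00647). Trp63 is expressed in thymic epithelium, whose marker sums were given above, and the part of these cells in its level was not tested.

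Of the 4 p53 targets in the BCL2 family, Bax, a pore-forming death protein, was lower in regressing tumours than in water (-2.20 ± 0.52, edgeR adjusted p = 0.034) and in progressing tumours (-2.55 ± 0.53, adjusted p = 0.0198), and none was called in progressing against water by edgeR, where 1 had an unadjusted p under 0.05. Of 11 further p53 targets, 2 were higher and 2 lower in progressing against water. The lower ones were the autophagy gene Dram1 (-2.39 ± 0.53, edgeR adjusted p = 0.0192) and the 14-3-3 gene Sfn (-1.36 ± 0.33, adjusted p = 0.0264). Regressing against progressing, 2 were again called in each direction, with the G2 and S phase gene Gtse1 (-3.26 ± 0.78, edgeR adjusted p = 0.0277) among the lower and Sfn (1.80 ± 0.34, adjusted p = 0.0151) among the higher. Steap3, a metalloreductase, was lower in regressing tumours than in water (-2.65 ± 0.64, adjusted p = 0.0359) and in both outcomes together (-2.38 ± 0.50, adjusted p = 0.0164). Both outcomes together also differed from water in Pml (-1.51 ± 0.23, adjusted p = 0.00519), Trp53 (-1.44 ± 0.34, adjusted p = 0.0255), Cdkn2a (-2.55 ± 0.62, adjusted p = 0.0268), Mdm4 (1.59 ± 0.45, adjusted p = 0.0461) and Trp53i11 (1.73 ± 0.47, adjusted p = 0.0394).

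In the grafts, 2 members were higher and 2 lower after ATO than after PBS. Over all 15468 genes tested, all 34 members among them, 7.37% were called higher and 6.57% lower, 13.9% in either direction. Pidd1 had 24.8 and 27.3 CPM after PBS and 57.4 and 44.9 CPM after ATO, without overlap (0.98 ± 0.24, edgeR adjusted p = 0.0233). Zmat3 had 12.5 and 8.32 CPM after PBS and 23.8 and 20.5 CPM after ATO (1.09 ± 0.33, adjusted p = 0.0467). The 12 members of death and survival hold both higher genes and 1 of the lower ones, Triap1. Triap1 had 77.0 and 62.0 CPM after PBS and 34 and 27.3 CPM after ATO (-1.18 ± 0.23, edgeR adjusted p = 0.0122). Rps27l had 218 and 172 CPM after PBS and 112 and 105 CPM after ATO (-0.85 ± 0.20, adjusted p = 0.023). Neither of these lower genes overlapped between the groups.

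Cdkn1a had 14.1 and 7.79 CPM in PBS grafts and 14.5 and 21.5 CPM in ATO grafts, just apart, with 0.72 ± 0.37 (edgeR adjusted p = 0.21). The median log2 fold change of the members was 0.24 beside 0.04 over all genes. In 14 members both ATO grafts were above both PBS grafts and in 9 below, patterns that 31.7% and 30% of all genes had (61.7% in either direction). An unadjusted p under 0.05 was found in 9 members, beside 31.8% of all genes. Members that did not pass ranged from Eda2r (2.24 ± 0.80, edgeR adjusted p = 0.0791), Epha2, a receptor tyrosine kinase (1.62 ± 0.59, adjusted p = 0.0846), and Ak1 (1.42 ± 0.66, adjusted p = 0.164) to Gdf15 (-1.07 ± 0.65, adjusted p = 0.282), the CDK4-binding protein gene Sertad1 (-0.84 ± 0.34, adjusted p = 0.112) and Btg2 (-0.56 ± 0.26, adjusted p = 0.164). Trp53 and Mdm2 were at -0.03 ± 0.22 and -0.16 ± 0.21 (adjusted p = 0.94 and 0.651). Of the regulators, 3 of 11 tested were higher and none lower, Mdm4 (1.17 ± 0.30, edgeR adjusted p = 0.0278), the damage kinase gene Atm (1.5 ± 0.36, adjusted p = 0.0233) and Pml (0.83 ± 0.21, adjusted p = 0.027). Bax was lower (-0.74 ± 0.21, adjusted p = 0.0389) and Thbs1, a matrix protein gene, was higher (2.30 ± 0.49, adjusted p = 0.016).

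Fibroblast markers summed to 212 to 469 CPM in PBS and 602 to 1630 CPM in ATO grafts, macrophage markers to 609 to 792 CPM and 322 to 361 CPM, and skeletal muscle markers to 11.3 to 207 CPM and 282 to 304 CPM. The mitochondrial share of counts was 0.52% and 1.02% after PBS and 5.98% and 4.03% after ATO. The part of these in the members' differences was not tested. A fit without 1 graft leaves 1 library in a group, so effect sizes are given. Over the 4 such fits the log2 fold change was 0.78 to 1.12 for Pidd1 and 0.8 to 1.4 for Zmat3. It was -1.36 to -1.03 for Triap1 and -1.04 to -0.68 for Rps27l. None of these 4 members kept its call in every such fit.

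**Figure D4:**
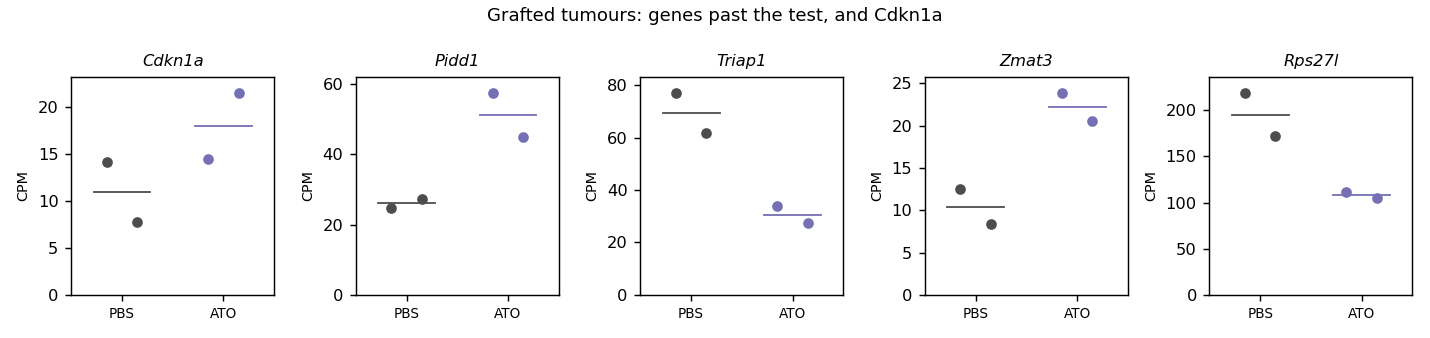
Each panel plots CPM (linear axis from 0) of 1 gene in the 2 PBS and 2 ATO grafts, with points for libraries and a line for the mean. Pidd1 and Zmat3 are higher and Triap1 and Rps27l lower after ATO, and the Cdkn1a libraries at 14.1 and 14.5 CPM lie side by side.

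In U937 cells expressing p53 R282W, 10 of the 27 members with a mean of at least 1 CPM were at least 2-fold higher after ATO and 1 was at least 2-fold lower, on the scale of log2(CPM + 1). There is 1 library a group and so no test, and the intervals below are 95% exact intervals that cover counting error only. Across the 13722 genes at this level, 15.3% were that much higher and 8.53% lower, 23.8% in either direction, and the median log2 ratio was 0.40 for the members beside 0.13 for all genes. By role, 4 of 6 measured members of metabolism and stress were higher, 3 of 7 of the cell cycle, 2 of 8 of death and survival (with 1 lower) and 0 of 5 of DNA repair.

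GDF15, a stress-induced cytokine, went from 3 counts after PBS to 1004 counts after ATO (0.168 and 61.0 CPM), a CPM ratio of 364 (124 to 1770). ABHD4, a lipase of N-acyl phospholipids, had 2.85 and 55.5 CPM, a ratio of 19.4 (14.7 to 26.3). DDIT4 had 12.6 and 180 CPM, a ratio of 14.3 (12.5 to 16.4). These 3 genes and the sestrin gene SESN2, at 45.6 and 354 CPM with a ratio of 7.75 (7.20 to 8.35), make up the 4 higher members of metabolism and stress. CDKN1A had 21.0 and 167 CPM, a ratio of 7.94 (7.12 to 8.87). GADD45A had 3.02 and 23.4 CPM, a ratio of 7.74 (5.81 to 10.5), and SERTAD1 2.18 and 10.3 CPM, a ratio of 4.71 (3.31 to 6.85). The cyclin gene CCNG1 was level at 225 and 219 CPM, with a ratio of 0.970 (0.927 to 1.01).

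Among genes of death and survival, ZMAT3 had 9.06 and 36.5 CPM, a ratio of 4.02 (3.38 to 4.82), and the TRAIL receptor gene TNFRSF10B 107 and 250 CPM, a ratio of 2.34 (2.22 to 2.47). AEN was the member that was lower, with 50.02 CPM after PBS and 9.97 CPM after ATO, a ratio of 0.199 (0.168 to 0.236). PIDD1, called higher in progressing W/W tumours and in ATO grafts, had 28.5 and 36.2 CPM, a ratio of 1.27 (1.12 to 1.43). RPS27L had 34.7 and 80.6 CPM, a ratio of 2.32 (2.11 to 2.56), and is subject to the same uncertainty over its paralogue as in the mouse. The 5 repair genes lay between a ratio of 0.666 for DDB2 and 1.57 for POLK. Of the members under the 2-fold bound, POLK, RRM2B (1.5) and SESN1 (1.48) had the highest ratios and EI24 (0.572), PSRC1 (0.607) and TRIAP1 (0.633) the lowest. ERCC5 shares 33.0% of its exon bases with a read-through gene on the same strand, so its counts are uncertain. The 7 members under 1 CPM were PLK2, EDA2R, PERP, PHLDA3, TP53INP1, AK1 and EPHA2, and EDA2R had 0 counts in both libraries, which allows up to 0.168 CPM after PBS and 0.182 CPM after ATO.

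MDM2 had 78.4 and 91.5 CPM after PBS and ATO, a ratio of 1.17. Of the 4 BCL2-family targets, BBC3 and PMAIP1 were each at a ratio of 5.14. Outside the p53 list, 5 of 7 measured genes of the ATF4 stress response were at least 2-fold higher (their list summed to 970 CPM after PBS and 2100 CPM after ATO), among them DDIT3 with a ratio of 20.5. ATF4 is known to induce GDF15, SESN2 and DDIT4 too. Proliferation genes were at least 2-fold lower in 8 of 12 (sums of 3220 and 1320 CPM). The part of either in the members' ratios was not tested. Scaling by TMM factors moved the median log2 ratio of all genes from 0.13 to -0.07 and that of the members from 0.40 to 0.21. It left 9 members higher and 2 lower, since the log2 ratio of RPS27L came to 0.99 and EI24, an endoplasmic reticulum protein gene, passed the 2-fold bound downwards.

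**Figure D5:**
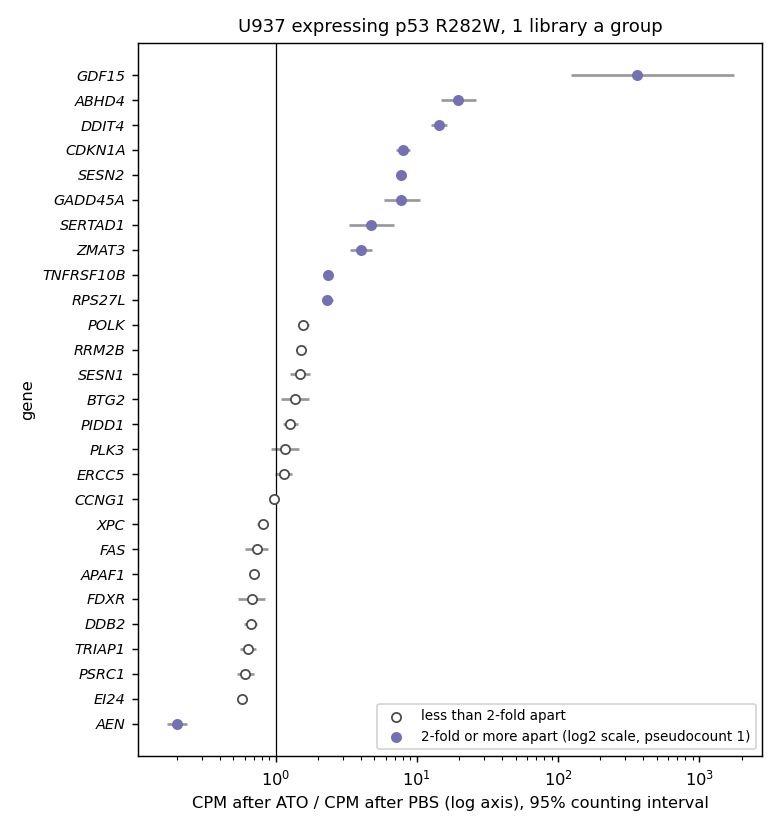
The plot gives the CPM ratio of ATO over PBS (log axis) with its 95% counting interval for the 27 members with a mean of at least 1 CPM, filled where the libraries differ at least 2-fold on log2(CPM + 1). GDF15 is far to the right with a wide interval from its 3 PBS counts, CCNG1 sits at 1, and AEN is alone on the left.

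The members with the largest differences in each system are set side by side here. GDF15, ABHD4, DDIT4, CDKN1A and SESN2 had the 5 highest ratios in U937. These genes did not pass the main edgeR test in W/W tumours or grafts. Cdkn1a and Ddit4 passed in W/W tumours under the alternatives given above. GADD45A, with a ratio level with that of SESN2, was called higher in progressing W/W tumours. Gdf15 did not exceed 2.22 CPM in any mouse library. Pidd1 was called in W/W tumours and grafts. Triap1 and Rps27l were called lower in regressing W/W tumours against progressing ones and in ATO grafts against PBS, while RPS27L was higher in U937. Zmat3 was called lower in regressing against progressing tumours, higher in ATO grafts, and 4.02-fold higher in U937. Doses and times are not given for any system and the tables were normalised separately, so the sizes of these differences were not compared by a test.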

How the data were processed

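RNA was sequenced from 9 thymus tumours, 4 grafts and 2 cell cultures. Per the labels' protocols, TRIzol was used for RNA and a SMARTer kit for the libraries. The submitters' processing notes name FastQC 0.10.1, cutadapt 1.9.1, HISAT2 2.0.1 and the builds GRCm38 and mm10. The human build, the program that counted reads and whether it used strand are not given in the sources used here. The authors deposited raw counts per gene, and FPKM values per gene beside them, in 1 table per system. For all 34 members the W/W table has the coordinates of GENCODE vM21 on GRCm38.

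Counts were tested with edgeR 4.0.16 (R 4.3.3; filterByExpr, TMM, quasi-likelihood F test, Benjamini-Hochberg adjusted p under 0.05), with the 9 W/W samples in 1 fit of 3 groups and the grafts alone. Adjusted p-values run over all genes tested. U937 has no replicates, so ratios of CPM are given, and the log2 scale has a pseudocount of 1 CPM. The limit for a count of 0 is 3 counts. Intervals and limits cover counting error only, as PCR copies of 1 molecule cannot be told from separate molecules here. FPKM values served only to order genes by level.

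A member has its values printed where it was called in a replicated comparison, or was at least 2-fold apart with 10 CPM or more in U937, and Cdkn1a always. Members that did not pass are given by the 3 highest and 3 lowest. Of other p53 pathway genes, Trp53 and Mdm2 are named in the mouse comparisons, with up to 6 a comparison of lowest adjusted p, and some results that the rule covers are not reported here. The members, lists and this rule were chosen with earlier results of these data known. Replicate numbers showed no pairing of the W/W samples (same-numbered correlations from -0.124 to 0.136, the others from -0.165 to 0.175). In the grafts the same-numbered value was -0.13 and the crossed value 0.13. With 2 grafts a group these are equal and opposite by construction, so they cannot decide on pairing. No pair of replicates agreed within sampling noise, by a chi-square of their counts per gene. Regressing replicates 1 and 2 were by far the most alike W/W pair (13.19, against 59.35 to 200 in the others). The graft pairs were at 28.89 and 34.77.

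On simulated data for regressing against water (18119 genes), 1 of 100 genes changed 2-fold and 5 of 98 changed 4-fold were recovered. For the grafts (15468 genes), 27.6% and 76.8% were recovered, with 15 false calls. No other genes tested were changed in these simulations, while 1396 and 2157 genes were called in the data. Recovery at an adjusted p depends on the number of changed genes, so these rates do not measure the power in the data. A member that missed the threshold is not shown to be equal. Alternatives used limma 3.58.1 (voom), DESeq2 1.42.0, RLE factors, no filter, a replicate block, left-out libraries and only the compared groups. For both outcomes against water, the last of these was a fit with the 2 treated groups merged into 1.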

Additional observations from a re-analysis of the deposited data

Results flagged for a closer look

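Btg2 was flagged because its libraries moved in opposite directions under ATO in the W/W tumours that regressed and in the grafts. In regressing against water tumours its log2 fold change was 2.19, with all 3 regressing libraries above all 3 water libraries. In the grafts it was -0.56, with both ATO libraries below both PBS libraries. Groups without overlap were common, with 40.1% of all genes in regressing against water and 61.7% in the grafts, in either direction. The share of genes apart in opposite directions is not given here, so Btg2 is not shown to be unusual. Neither change of Btg2 passed its own edgeR test (adjusted p = 0.0628 and 0.164). Btg2 was called in regressing against water by DESeq2, without a filter on low counts, with the compared groups alone, with a replicate block, and without progressing replicate 1 or 2. In the grafts it was called without the filter. The difference between the systems was not tested.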

How the results depend on the processing

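Scaling by RLE factors left the W/W and graft counts of called members at 2, 7, 7, 5 and 4 (regressing against water, progressing against water, regressing against progressing, both outcomes against water, and grafts, where TMM gave 2, 7, 7, 4 and 4). Of all genes, TMM called 7.7%, 11.9%, 12.6%, 10.9% and 13.9%, and RLE 7.79%, 12.1%, 12.9%, 10.9% and 13.8%. With no low-count filter members numbered 6, 12, 11, 9 and 7, beside 7.81%, 10.4%, 10.5%, 9.51% and 11.8% of all genes. DESeq2 gave 5, 11, 12, 8 and 5, beside 15.9%, 17.6%, 18.7%, 16.5% and 18.4%. A fit of the compared groups alone gave 3, 4 and 9 in the W/W comparisons of 2 groups, beside 10.1%, 5.32% and 19.4%. For both outcomes against water, a fit of all 9 W/W libraries with progressing and regressing merged into 1 group gave 1, beside 2.02%. Without the 2 low-TMM libraries, both outcomes against water had 7, beside 12.1% of all genes. Leaving out 1 W/W library at a time gave 0 to 3, 4 to 12, 1 to 10 and 1 to 7 members in the W/W comparisons. The shares of all genes called in these fits also varied, from 0.312% to 8.43%, 4.78% to 13.3%, 0.922% to 19.9% and 3.42% to 11%. In the grafts such a fit leaves 1 library in a group, so no count is given. The log2 fold change of Cdkn1a in regressing against water, -0.39, turned to 0.08 without water replicate 2 and to 0.03 without the low-TMM pair, and ranged from -1.49 (without regressing replicate 3) to 0.08 over the left-out libraries, none of them past the threshold. For the changes of direction and count named here the cause was not tested, beyond the smaller number of samples or genes that some of these fits use by construction. In U937 the reported setting and all 5 alternatives gave 11 members at least 2-fold apart. They were 10 higher and 1 lower except under TMM scaling (9 and 2). Of all genes, 23.8% were that far apart in the reported setting and 5.73% to 28.7% in the alternatives.

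With a replicate block the counts were 3, 5, 7, 3 and 3, beside 5.28%, 7.75%, 8.81%, 6.79% and 8.73% of all genes. The numbers showed no pairing of the W/W samples and cannot settle it for the grafts. A call lost under the block was therefore not read as a weaker effect. A block with the graft numbers crossed was added after seeing the data, because same-numbered grafts had a correlation of -0.13. It gave 8 members, beside 21.3% of all genes. Limits of these data are 2 or 3 libraries a group, 1 in U937, and unequal cell markers between groups. No use of strand in counting is stated, and the power of the W/W design is not known and may be low.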

Other observations

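Immediate-early genes, which respond to many stresses and to tissue handling, were also read. In U937, 4 of 8 were at least 2-fold higher after ATO on log2(CPM + 1), with DUSP1 at a CPM ratio of 7.17, JUN at 3.51, ZFP36 at 3.43 and FOS at 2.33. Their W/W sums were 222 to 334 CPM in water, 102 to 503 CPM in progressing and 244 to 396 CPM in regressing libraries. The highest was progressing replicate 2, the library that also had the most Cdkn1a and Gadd45a. The lowest were progressing replicates 1 and 3 (102 and 125 CPM). The part of these genes' response in the members' levels was not tested.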
